A study of Mus musculus with 3 samples.

Results

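The SOCS family comprised 8 genes, Cish and Socs1 to Socs7, taken by symbol out of 55418 gene symbols measured in each library, and every one of the 8 was found. All 3 libraries formed a single group: bone marrow-derived macrophages of C57BL/6J mice, given lipid A at 100 ng/ml for 90 min, from which cytosolic total RNA was taken and its ribosomal RNA depleted. Lipid A, the membrane anchor of lipopolysaccharide, activates Toll-like receptor 4 (TLR4). The labels number the libraries as biological replicates, give the same donor identifier for all 3, and start each from 1 µg of RNA; sex and age are not given, and nothing says whether the cells came from separate cultures, so p-values measure the spread between these libraries, which may be technical. Neither untreated cells nor RNA of the nucleus was analysed here, so the values below are levels after lipid A and not inductions.

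SOCS proteins are feedback inhibitors of cytokine signalling. Cytokines that bind receptors coupled to Janus kinases (JAKs) activate STAT transcription factors, STATs switch on SOCS genes, and the SOCS proteins then bind phosphorylated receptors or JAKs through an SH2 domain and recruit an elongin-cullin ubiquitin ligase through a C-terminal SOCS box. SOCS1 and SOCS3 also block JAK catalysis directly, and in macrophages they are known as brakes on interferon and interleukin-6 signalling; CIS, SOCS2 and SOCS3 act mainly at cytokine receptors, whereas SOCS4 to SOCS7 are better known from receptor tyrosine kinases and their adaptors.

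Promoter sequence was matched in RefSeq (GRCm38.p6) for 4 of the 8 members, Cish, Socs1, Socs3 and Socs4. The sequences of Socs3 and Socs1 are shown because these genes were, in the libraries described below, the member with the highest level and the member with the largest spread between libraries, and a short stretch of Cish is shown because it holds a pair of matches side by side. Each is written 5′ to 3′ on the strand of its gene, with motif matches in capitals. The capitals in Socs3 and Cish are matches to the STAT-binding GAS letters TTCNNNGAA, and those in Socs1 are overlapping matches to the interferon-stimulated response element (ISRE), that is GAAA, any 2 bases and GAAA again. The Socs3 window is chr11:117969367-117969616 on the minus strand and ends just before the RefSeq start. It lies inside the annotated span of the gene. The Socs1 window is chr16:10785537-10785786 on the minus strand and lies upstream of the gene. The Cish stretch is chr9:107296655-107296683 on the plus strand and spans the RefSeq start, inside the annotated span of the gene.
Socs3: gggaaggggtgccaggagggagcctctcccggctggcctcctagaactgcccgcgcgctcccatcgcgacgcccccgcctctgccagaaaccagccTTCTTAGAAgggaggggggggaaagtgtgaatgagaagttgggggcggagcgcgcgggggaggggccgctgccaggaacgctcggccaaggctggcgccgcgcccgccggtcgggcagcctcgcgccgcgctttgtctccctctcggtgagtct
Socs1: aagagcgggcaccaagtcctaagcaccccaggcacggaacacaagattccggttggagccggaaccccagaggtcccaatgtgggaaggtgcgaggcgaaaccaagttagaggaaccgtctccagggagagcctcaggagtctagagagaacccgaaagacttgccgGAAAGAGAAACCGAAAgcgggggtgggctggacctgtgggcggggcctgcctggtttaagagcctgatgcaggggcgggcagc
Cish: agttTTCCTGGAAagTTCTTGGAAatctg
Searched on both strands over the 250 bases before and 50 after each start, GAS letters occurred in 8.3% of all 32851 RefSeq promoters and ISRE letters in 3.44%. Neither motif, nor AP-1 (TGANTCA, in 7.81% of promoters) nor NF-kB (in 6.93%), matched in the Socs4 window, and neither AP-1 nor NF-kB matched in the other 3. A match is a description of letters in these windows, not a binding site.

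The cells carried macrophage transcripts. Of 12 macrophage markers, 11 were called above the reference defined below, led by Lyz2 (lysozyme) at 4347 ± 1009 TPM, Ctss (cathepsin S) at 776 ± 67.5 TPM and Cd68 at 599 ± 67.6 TPM (SD, n = 3), and the markers summed to 6114 to 8276 TPM per library. Markers of T and NK cells summed to 0.24 to 0.31 TPM, those of fibroblasts to 0.07 to 0.18, of dendritic cells to 2.06 to 2.51, of B cells to 2.81 to 6.41 and of neutrophils to 23.8 to 41.05, the last mainly S100a9 and S100a8, with Ly6g at 0. Nuclear-retained RNAs were unequal between libraries: Malat1 stood at 128, 335 and 913 TPM and Neat1 at 12.9, 24.1 and 66.9 TPM in replicates 1, 2 and 3. Depth was unequal too, with 33671556, 47764593 and 59332546 expected counts on annotated genes. In bulk RNA, fewer cells with a transcript and less transcript per cell cannot be told apart.

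Socs3 held most of the family's RNA. In the first of 2 deposited quantifications its level was 341, 267 and 238 TPM (a length-corrected share of all transcripts) in replicates 1, 2 and 3. In the second it was lower, at 154, 103 and 72.8 TPM. TPM values below are from the first unless the second is named. Expected counts of Socs3 in the first were 46967, 58882 and 63956. Its TPM there was 88.4%, 88.4% and 88.2% of that of all 8 members in the same libraries. The other 7 members together reached 37.2 ± 6.60 TPM (SD, n = 3), so a single gene outweighed the rest of the family in every library. Among the 8747 protein-coding genes whose mean reached 1 TPM, the mean of Socs3 stood at percentile 98.8.

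Each gene was then set against a reference, the median TPM of those 8747 genes in the same library, which was 7.38, 6.08 and 6.21 TPM. Differences are on the log2(TPM + 0.1) scale and were tested with limma's one-sample moderated test, with Benjamini-Hochberg adjustment over 13327 genes; a call needed an adjusted p under 0.05 and a difference of at least 1. Socs3, which inhibits signalling by the interleukin-6 receptor subunit gp130 and by the G-CSF receptor, was the only member called above: 5.39 ± 0.14 (SD, n = 3; adjusted p = 3.17e-05), or 42.1-fold. It was 4.37 with the reference floor raised to 5 TPM, and 4.78 in the second of the 2 deposited quantifications, which was made from the same reads without the transcriptome alignments and has a reference of its own. Across all genes tested 20.5% were called above, so 1 of 8 is not more than the background share.

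Among the other cytokine-receptor inhibitors, Cish, whose protein CIS competes with STAT5 at receptors such as those for erythropoietin and interleukin-2, had 11.9, 9.94 and 7.88 TPM. Its difference from the reference was 0.57 ± 0.20 (SD, n = 3; limma adjusted p = 0.0077), above the reference in every library but under the size a call needed. Its sign was not stable: the difference was -0.14 (limma adjusted p = 0.268) in the second quantification against its own reference, and -0.45 in the first with the reference floor at 5 TPM.

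Socs1, whose protein is a known inhibitor of interferon signalling, had 4.44, 2.48 and 1.78 TPM. Replicate 1 was 2.49 times replicate 3, a wider gap than in any other member. Socs1 was called below the reference at -1.24 ± 0.51 (SD, n = 3; limma adjusted p = 0.00851). Without replicate 3 the difference was -0.98 and the call was lost, and with the reference floor at 5 TPM the difference was -2.27. The TPM of Socs3 was 76.8, 108 and 134 times that of Socs1 in replicates 1, 2 and 3.

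Socs2, which restrains growth hormone receptor signalling, was the lowest member, with 0.65, 0.39 and 0.49 TPM from 62, 74 and 69 expected counts. It was called below the reference at -3.46 ± 0.17 (SD, n = 3; limma adjusted p = 4.35e-05), or 11.0-fold. The size depended on the settings, with -2.32 at a pseudocount of 1 and -4.49 with the reference floor at 5 TPM. The authors' deposited interval for its TPM ran over 0.835 to 1.82 in replicate 1 and 0.532 to 1.07 in replicate 2. Both lay above the deposited point value. In replicate 3 it ran over 0.478 to 1.01 and held the point value of 0.49. Socs3, with far more counts, also had point values outside its intervals, above them in every library. Its intervals were 331.2 to 337.5, 261.8 to 266.3 and 234.1 to 237.8 TPM, against 340.9, 267.2 and 238.3. The cause was not tested. The sequence of Socs2 was 99.5% identical over 599 bases to the processed pseudogene Gm9847, which was listed at 0 TPM in all 3 libraries, so the split of reads between them is uncertain.

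**Figure D1:**
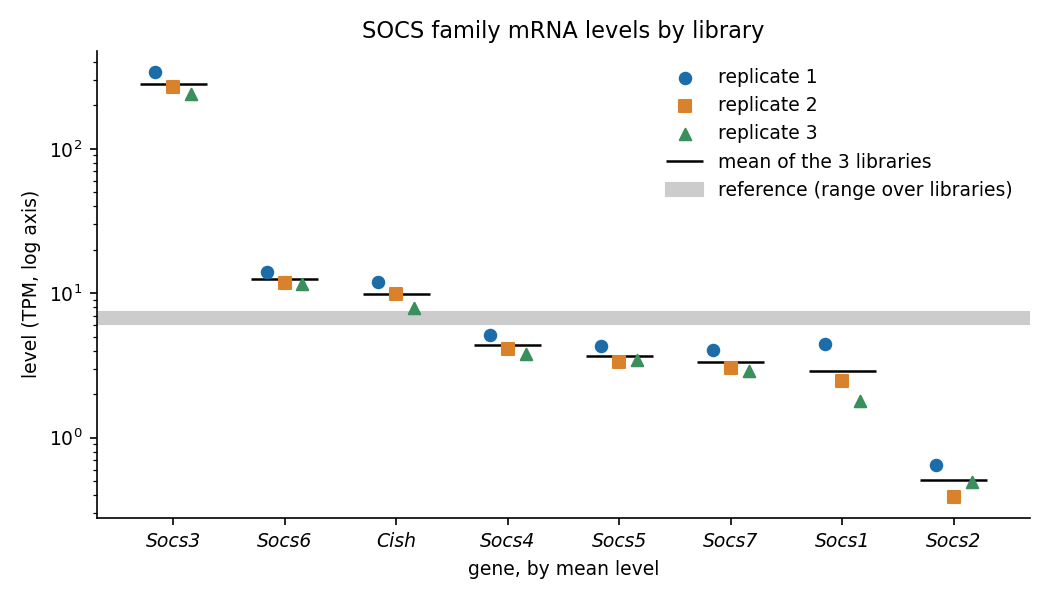
Level of each SOCS family gene in the 3 libraries, in TPM of the first quantification on a log axis. The mean is a black line and the range of the reference a grey band (7.38, 6.08 and 6.21 TPM). Socs3 sits at 238 to 341 TPM, far above the other 7, and Socs2 lies under 1 TPM in every library.

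Of the 4 members known from receptor tyrosine kinases, Socs6 lay above the reference, and Socs4, Socs5 and Socs7 lay close together below it. Socs6, which binds the receptor KIT and the insulin receptor, had 14.1, 11.8 and 11.7 TPM and was the second most abundant member in every library. Its difference from the reference, 0.92 ± 0.02 (SD, n = 3; limma adjusted p = 0.000234), had the smallest spread of the 8 and was just under the size a call needed. On the FPKM scale, where the difference was 1.14, it was called above. The reference floor of 1 and the pseudocount were then applied to FPKM, so the reference changed and the shift is not one of unit alone.

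Socs4, reported to act on the epidermal growth factor receptor, had 5.15, 4.10 and 3.80 TPM. Socs5, its closest relative, had 4.29, 3.33 and 3.43 TPM. Socs7, which binds the adaptor NCK and insulin receptor substrates, had 4.07, 3.04 and 2.90 TPM. All 9 values lay below the reference of their library. Their differences were -0.59 ± 0.10, -0.82 ± 0.04 and -0.96 ± 0.12 (SD, n = 3; limma adjusted p = 0.00178, 0.00037 and 0.000508 in that order), none large enough for a call. Socs7 was nearest to it and was called below without replicate 1, at -1.05, and both Socs5 and Socs7 were called below in the second quantification, at -1.23 and -1.25. With the reference floor at 5 TPM all 3 were called below, Socs4 at -1.62, Socs5 at -1.85 and Socs7 at -1.99, and Socs6 stood at -0.11.

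Of the 8 members, 2 were thus called below the reference, against 50.6% of all genes tested, and 5 were called in neither direction. The median difference of the members was -0.70, against -1.06 over all 13327 genes. The structural subgroup of CIS and SOCS1 to SOCS3 held both ends of the family, from -3.46 to 5.39, while SOCS4 to SOCS7 ran from -0.96 to 0.92.

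**Figure D2:**
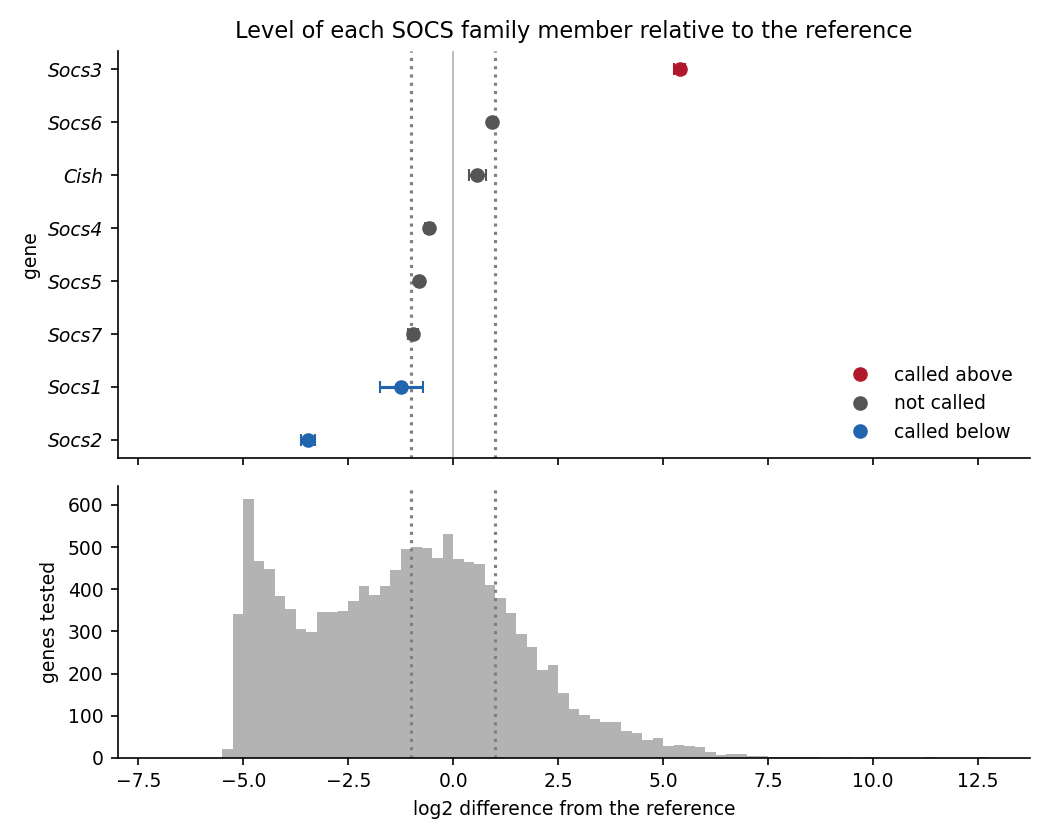
Upper panel, mean log2 difference of each member from the reference with the SD over 3 libraries as bars; lower panel, the same difference for all 13327 genes tested, as a histogram of genes. Dotted lines mark the size a call needed; Socs3 at 5.39 lies in the right tail of all genes, and the members apart from Socs3 and Socs2 lie between -1.24 and 0.92.

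In descending order of mean TPM the members were Socs3, Socs6, Cish, Socs4, Socs5, Socs7, Socs1 and Socs2. Neighbours were taken to differ beyond their spread when the difference of their log2 levels had the same sign in every library and a mean over 2 SD. This held for 4 of 7 neighbouring pairs: Socs3 over Socs6 (4.48 ± 0.12), Cish over Socs4 (1.16 ± 0.12), Socs4 over Socs5 (0.23 ± 0.08) and Socs1 over Socs2 (2.22 ± 0.49). It did not hold for Socs6 over Cish (0.34 ± 0.19), Socs5 over Socs7 (0.15 ± 0.08) or Socs7 over Socs1 (0.28 ± 0.40). The last pair changed places: Socs1 ranked above Socs5 and Socs7 in replicate 1 and below both in replicates 2 and 3. In the second quantification 4 of 7 pairs again met the criterion, but Socs6 over Cish replaced Socs4 over Socs5 among them. There Socs1 ranked below both Socs5 and Socs7 in every library, so its change of place was seen in the first quantification alone.

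The libraries differed in Socs1 more than in any other member. After TMM scaling its log2 CPM was 4.26, 3.69 and 3.20 in replicates 1, 2 and 3, an SD of 0.53, against a median SD of 0.12 over 12330 genes, which put it at percentile 94.5. Replicate 1 was the high library and replicate 3 the low one. In edgeR's goodness-of-fit test against the trended dispersion, Socs1 was the only member whose spread was called larger than that of genes of like abundance (Benjamini-Hochberg adjusted p = 0.0128; 2.28% of all genes tested were called). The call rested on all 3 libraries, since the adjusted p was 0.887, 0.0797 and 0.375 without replicate 1, 2 and 3. Even the raw expected counts of Socs1, 675, 603 and 529, were lowest in the deepest library. Malat1 and Neat1 were highest in the library where Socs1 was lowest; their part in the difference, and that of depth, was not tested.

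The remaining members were steadier. Socs5 and Socs6 had SDs of 0.034 and 0.043, at percentiles 8.82 and 12.9 of all genes. Socs3, Cish, Socs4 and Socs7 had SDs of 0.136, 0.103, 0.0993 and 0.171. Socs2, with fewest counts, had 0.279. None of these 7 was called by edgeR's goodness-of-fit test, where their unadjusted p ran from 0.283 for Socs7 to 0.959 for Socs5.

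**Figure D3:**
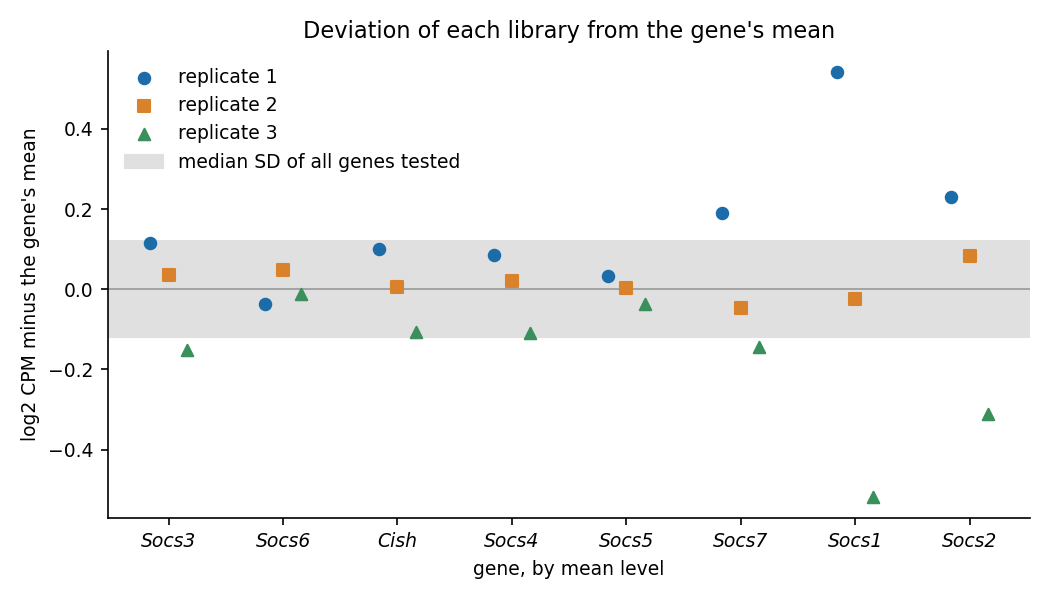
TMM-scaled log2 CPM of each member in each library minus the mean of its 3 libraries, with the median SD of all genes (0.12) as a grey band. Socs1 lies far outside the band in replicate 1 (high) and replicate 3 (low), while Socs5 and Socs6 stay inside it.

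Annotated transcripts were compared by their share of the gene's TPM, with no test. Socs3 was nearly all Socs3-201, the coding transcript, at 99.4% ± 0.26 in the second quantification and 99.8% ± 0.11 in the first (SD, n = 3). Socs1 was mostly Socs1-201, at 87.6% ± 4.71 in the second and 94.8% ± 0.99 in the first. Both genes therefore had a single dominant mRNA by either method.

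Socs6 was split between coding transcripts. Socs6-203 took 49.0% ± 0.29 in the second quantification and 51.7% ± 2.37 in the first, and Socs6-201 took 18.1% ± 1.53 and 31.5% ± 2.93. Socs6-208 took 18.0% ± 2.69 in the second quantification but 0.21% ± 0.37 in the first. Socs5 was likewise shared between Socs5-201, at 64.6% ± 1.99 in the second and 72.0% ± 2.43 in the first, and Socs5-203, at 30.8% ± 0.47 and 24.02% ± 2.76.

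The transcripts of Cish differed both between libraries and between methods. Cish-201, the main coding form, took 93.8%, 82.7% and 69.8% in the second quantification and 64.8%, 43.6% and 44.2% in the first, in replicates 1, 2 and 3. The coding transcript Cish-204 took 4.15% ± 1.15 in the second and 32.1% ± 3.77 in the first, so the methods disagreed on which coding form held the reads. They shared one feature: the noncoding transcript Cish-202 took 3.35%, 9.79% and 25.7% in the second and 2.43%, 6.24% and 18.0% in the first, low in replicate 1 and high in replicate 3. The level of Cish-202 was 0.29, 0.62 and 1.42 TPM in the first quantification. Malat1 and Neat1 were also lowest in replicate 1 and highest in replicate 3; their part in this pattern was not tested.

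Socs7 carried a noncoding share as well. Socs7-202, a transcript with no annotated reading frame, took 23.3% ± 7.17 in the second quantification and 12.2% ± 3.11 in the first, although it held only 5.59, 11.7 and 13.9 expected counts in replicates 1, 2 and 3. Socs4 was all Socs4-201 in the first quantification and 90.5% ± 4.17 in the second. Socs2 shares rested on fewer than 100 counts per library in the first quantification, where Socs2-201 took 73.8%, 100% and 47.9%.

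**Figure D4:**
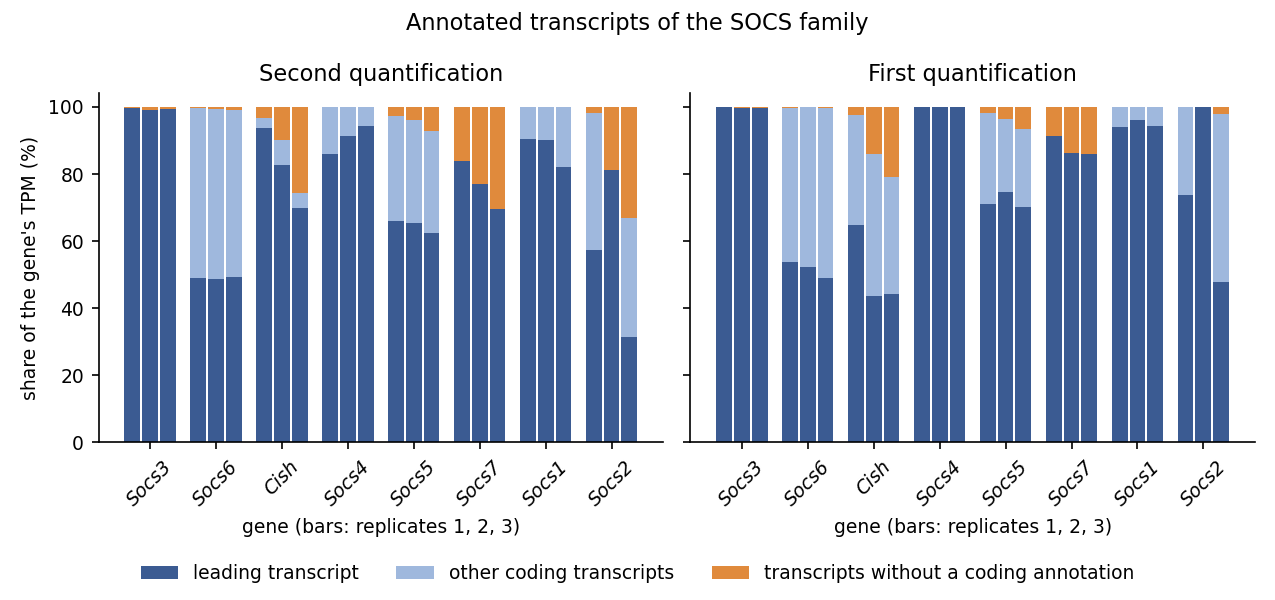
Share of each gene's TPM held by its leading transcript, by other coding transcripts and by transcripts without a coding annotation, in percent; 3 bars per gene are replicates 1, 2 and 3, with the second quantification on the left and the first on the right. Socs3 is a single coding transcript and Socs6 is split between coding transcripts. The noncoding shares of Cish, Socs5 and Socs7 are lowest in replicate 1 and highest in replicate 3 in both.

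Gene totals were compared between the quantifications as well. After centring on the median gene, the log2 ratio of the second to the first quantification was 0.31 ± 0.05 for Socs6, 0.17 ± 0.09 for Socs7, -0.26 ± 0.08 for Cish and -0.16 ± 0.03 for Socs3 (SD, n = 3), and -0.03 ± 0.05 for Socs1, 0.06 ± 0.06 for Socs4 and 0.05 ± 0.03 for Socs5. None of the 7 members tested reached the log2 ratio of 1 that a call needed, against 2.72% of 9476 genes called higher and 1.88% called lower in the second quantification. By limma's adjusted p alone, with no size required, 4 members were under 0.05, namely Socs6 (0.00989), Socs3 (0.0177), Cish (0.0212) and Socs7 (0.046), and the same 4 were under it unadjusted. The share of all genes under 0.05 with no size required was not recorded. The 4 of 7 is therefore not read as a result about the members. Socs2, with a mean under 1 TPM, was not tested.

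The members shared gene structure that the choice of symbols did not use. In the most abundant coding transcript, 5 of 8 members (Socs1, Socs3, Socs4, Socs5 and Socs6) had their whole reading frame in 1 exon, against 5.50% of 8740 expressed protein-coding genes. Cish had 3 coding exons, Socs2 had 2 and Socs7 had 9. Reading frames fell into short and long: Socs2, Socs1, Socs3 and Cish had 198, 212, 225 and 257 codons, and Socs4, Socs6, Socs5 and Socs7 had 436, 533, 536 and 579, with a median of 426.5 over the 8740 genes. The AU-rich letters TATTTAT, a motif of short-lived mRNAs, occurred in the 3′ UTR of 5 of 8 members, 3 times in Cish, 2 times in Socs3 and 1 time in each of Socs2, Socs4 and Socs5, against 26.8% of the 8740 genes with at least 1 match and 8.75% with at least 2. The 3′ UTR was longer than the median of 910 bases in 7 of 8 members, with 5182 and 5184 bases in Socs4 and Socs7, and longer UTRs have more room for a match.

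The genes lie on several mouse chromosomes (mm10, GENCODE M21). Socs3 is at chr11:117966079-117970047 on the minus strand and Socs7 at chr11:97362551-97398542 on the plus strand. Socs1 is at chr16:10782240-10785536, Socs2 at chr10:95385362-95417180 and Socs6 at chr18:88665224-88927481, all on the minus strand. Cish is at chr9:107296026-107302784, Socs4 at chr14:47276931-47296102 and Socs5 at chr17:87107679-87137839, all on the plus strand. Cish overlaps the opposite-strand genes Gm17040 and Gm17041, both at 0.03 TPM or less, and shares 322 identical bases with Gm17041. Socs6 matches the processed pseudogene Gm9449 at 96.7% over 1006 bases, which was at 0.03 TPM or less. Values of Cish and Socs6 are uncertain to the extent that reads were split with these genes.

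By distance of log2 levels over the 3 libraries, the protein-coding genes nearest to Socs3 among 11178 were Ms4a7 (347.7, 265.4 and 241 TPM; distance 0.034), Srgn (331, 264 and 235 TPM; 0.051) and Rpl34 (346.5, 250.7 and 225 TPM; 0.127). Nearest to the other members were Csnk2a1 for Socs6, Sc5d for Cish, Gdap2 for Socs4, Ap5s1 for Socs5, Uri1 for Socs7, AA467197 for Socs1 and Plbd1 for Socs2. These genes lay at distances of 0.00587 (Socs5) to 0.0811 (Cish), apart from the one nearest to Socs1, which lay at 0.189, with AA467197 at 4.01, 2.67 and 1.87 TPM.

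Around the family, the pathway was measured from ligand to ubiquitin ligase. Of 117 pathway genes tested besides the members, 53 (45.3%) were called above the reference and 30 (25.6%) below, with a median difference of 0.62 against -1.06 over all genes. Among cytokine ligands, 5 of 16 tested were above and 5 below. Of the 23 listed, 7 did not reach a mean of 0.1 TPM and were not tested, and with no filter 12 were called below. The highest were Il10 (62.8 ± 13.8 TPM), an anti-inflammatory cytokine that signals through STAT3, Il12b (59.6 ± 25.4 TPM), a subunit of interleukin-12 and interleukin-23, and Ifnb1 (30.8 ± 14.6 TPM), interferon beta; Il12a was the lowest tested (0.107 ± 0.025 TPM). Il6, named after its values were seen because its receptor is a target of SOCS3, had 9.43, 5.40 and 4.84 TPM and was not called.

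Many ligands differed between libraries: 9 of 14 tested were called by edgeR's goodness-of-fit test, against 2.28% of all genes. Some were highest in replicate 1, where Socs1 was highest, such as Ifnb1 (46.5, 17.6 and 28.3 TPM). Others were highest in replicate 3, such as Csf2, which encodes GM-CSF (10.6, 14.6 and 30.3 TPM), named after its values were seen. No JAK, STAT, receptor chain or ubiquitin ligase subunit was called by that test in edgeR after adjustment over all genes; at an unadjusted p under 0.05 there were 2, the receptor chains Il7r and Il15ra.

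Of JAK-coupled receptor chains, 14 of 23 tested were called above and 5 below, and 5 more did not reach a mean of 0.1 TPM. Il10rb (77.7 ± 6.66 TPM), Ifnar2 (52.4 ± 3.67) and Csf2rb2 (49.8 ± 4.30) led, and Il2ra (0.237 ± 0.023) was lowest. Among receptors that SOCS3 is known to bind, Il6st (gp130, 17.7 ± 0.63 TPM) and Csf3r (13.6 ± 0.81) were above the reference (limma adjusted p = 0.000276 and 0.000762). They were named after their values were seen and need not be the full set of such receptors. In the same list, Epor (0.90 ± 0.14 TPM) was called below and Il12rb2 (5.85 ± 1.44) was not called. Growth hormone receptor (Ghr), the target of SOCS2, and the prolactin receptor (Prlr) were listed at 0 in all 3 libraries.

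Of 4 JAKs, Jak1 (38.3 ± 3.93 TPM) and Jak2 (31.4 ± 3.88) were called above, and Tyk2 (8.21 ± 0.99) was not called. Of 7 STATs, 5 were above, among them Stat6 (29.6 ± 3.37 TPM) and Stat3 (17.2 ± 2.96), and Stat4 (0.85 ± 0.24) was below. Of 14 genes listed as STAT3 or STAT5 targets, 8 were above and 2 below, with Mcl1 (243 ± 9.08 TPM), Pim1 (235 ± 33.6) and Tnfrsf1b (212 ± 14.4) highest and Pim2 (0.407 ± 0.035) lowest. Socs3 and Cish are themselves STAT targets in textbooks and were not counted in this list.

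Of 10 listed subunits and partners of elongin-cullin ligases, 8 were called above and none below. Nedd8 (73.4 ± 10.3 TPM), Elob (elongin B, 61.6 ± 13.2) and Ube2f (40.6 ± 6.52) led. The list covers both Cul5 and Cul2, so it is wider than the ligase that SOCS boxes recruit. The cullin of that ligase, Cul5, had 5.87, 4.65 and 4.99 TPM, below the reference of each library but not by enough for a call. Of 15 other SOCS box proteins tested, 10 (66.7%) were below and 2 (13.3%) were above, against 50.6% and 20.5% of all genes tested. Another 12 did not reach a mean of 0.1 TPM. The 2 above were Wsb2 (39.8 ± 2.51 TPM) and Wsb1 (29.3 ± 5.23). Asb6 (4.42 ± 0.06) came next and Asb4 (0.24 ± 0.01) was the lowest tested.

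Of 15 genes listed as other inhibitors of JAK-STAT signalling, 6 were called above and 1 below. Lrrfip1 is among the genes listed and called above, and no role of it in that signalling is claimed here. The phosphatase genes Ptprc (63.5 ± 4.77 TPM) and Ptpn6 (28.2 ± 4.16) and Lrrfip1 (60.2 ± 1.27) were highest, and Pias3 (1.89 ± 0.39) was below. Socs3, at 282 ± 52.9 TPM, had a higher TPM than any of the 15. Of 9 tested receptor tyrosine kinases and adaptors that SOCS proteins bind, 3 were above, Csf1r (219 ± 26.4 TPM), Nck1 (19.6 ± 5.88) and Irs2 (17.0 ± 0.38). Another 4 were below, with Flt3 (0.143 ± 0.051) lowest, and 3 more did not reach a mean of 0.1 TPM. Of 6 TLR4 pathway proteins reported as targets of SOCS1 or SOCS3, Rela (41.0 ± 6.41 TPM) was above, Irak1 (11.8 ± 0.92) and Irak4 (5.95 ± 0.73) were not called, and Tirap (1.89 ± 0.28) and Map3k5 were below.

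**Figure D5:**
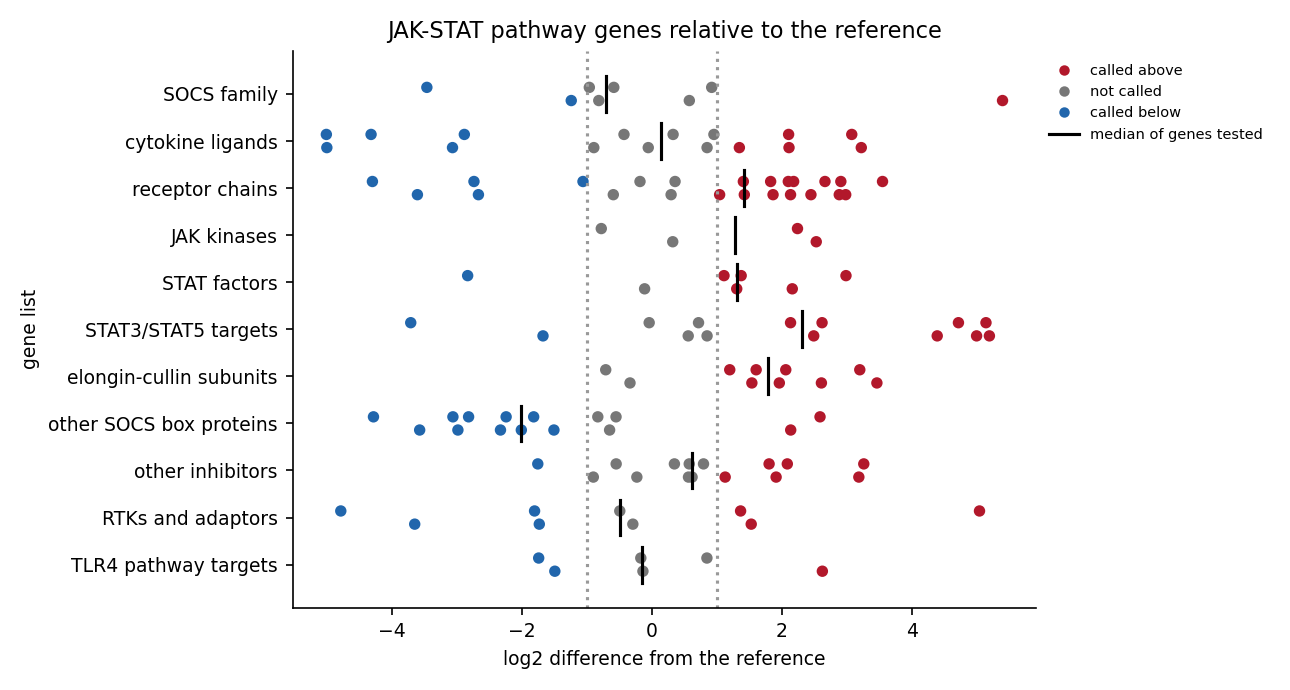
Mean log2 difference from the reference for each tested gene of the SOCS family and of the pathway lists, 1 point a gene, with the list median as a black line and dotted lines at the size a call needed. The ligase subunits (8 of 10 above) and STAT factors (5 of 7 above) lie mostly right of the reference, other SOCS box proteins (10 of 15 below) mostly left, and Socs3 stands alone at the right of its family. Of all genes tested, 20.5% were called above and 50.6% below.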

How the data were processed

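The authors deposited, for each library, 2 quantifications on mm10 with GENCODE M21. Expected counts, TPM and FPKM make up the first, by gene and transcript, per the file headers. Estimated counts and TPM by transcript make up the second. The deposited interval bounds of TPM are treated as a score. Tool names, versions and strand use were not given in the sources used here. TPM as deposited runs over everything quantified in a library, spike-ins included.

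Of 81881 entries, 55536 were annotated genes. Entries that named no gene held 0.443%, 0.164% and 0.0982% of expected counts and were left out. For 115 symbols with several identifiers, values were summed. Levels were tested with limma 3.58.1 on log2(TPM + 0.1) of genes averaging 0.1 TPM or more, in R 4.3.3. Spread was tested with edgeR 4.0.16 (TMM, prior count 2) on expected counts rounded to whole numbers, for genes that had 10 or more counts in all libraries; DESeq2 1.42.0 size factors were an alternative. The goodness-of-fit and one-sample steps were run on simulated data with a single dispersion and most genes at the reference. These data differ from that setting, so the run checked the code and not the error rates here. All 8 members passed these filters. With 1 group, no contrast between samples was possible, so the library is the unit. The precision of a value is limited by the 3 libraries; a gene with no count could hold up to 3 counts, a limit that covers counting error alone, as reads lacking molecular identifiers may repeat a molecule. Copies were searched with BLAST 2.17.0 (at least 95% identity over 200 bases).

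The members, lists, tests and alternatives were chosen with earlier results of these data known. Text names all members and, of each list, the 3 highest by mean TPM and a gene called below that is highest or lowest in its list; nearest genes are the 3 closest to the most abundant member and 1 to each other member. A gene that this rule names is not reported here.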

Additional observations from a re-analysis of the deposited data

How the results depend on the processing

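Socs3 was called above and Socs2 below wherever they were tested, whatever the pseudocount, filter, unit, quantification, reference or library left out. Raising the floor of the reference to 5 TPM gave calls below for 5 members and turned Cish to -0.45 and Socs6 to -0.11, neither called, with 35 pathway genes above and 50 below, and 1422 of all genes above. With no filter, 57 pathway genes and 48879 of all genes were below; requiring a mean of 1 TPM, 1 member, 12 pathway genes and 2694 of all genes were, since fewer genes were tested. FPKM, with the reference floor and the pseudocount applied on that scale, put 2 members above. The second quantification put 4 members below, and Cish at -0.14. Leaving out 1 library gave 1 to 3 members below, 0 members variable and 96 to 180 of all genes variable, against 281. The centred ratio of the quantifications changed sign for Socs1 with a pseudocount of 1 (0.16), and for Socs4 (-0.065) and Socs5 (-0.075) when genes averaging 0.1 TPM entered. The cause was not tested. No paired analysis was possible because the 3 replicate numbers label a single group. Depth limits Socs2, with 62 to 74 counts. Without untreated cells or nuclear RNA, neither induction nor export can be read from these levels.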
